A study of Mus musculus with 6 samples.

Results

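The 8 genes described here, Sox10, Foxd3, Erbb3, Cdh19, S100b, Mbp, Pmp22 and Prx, mark Schwann cells and their myelin. They were taken by symbol from a table of 27506 genes, and all 8 were in it. The libraries were single-end RNA-seq of dental pulp from the mandibular first molars of C57BL/6 mice at postnatal day 3.5. There were 3 control libraries of genotype Ror2fl/fl and 3 mutant libraries of genotype Osr2-Cre;Ror2fl/fl, in which Cre recombinase removes the floxed receptor gene Ror2 from Osr2-expressing cells. Both groups were thus labelled with floxed Ror2 alleles, and by their genotype labels only the mutants carried the Cre, so that an effect of the Cre itself cannot be told apart from that of the deletion. The sample titles hold a further code, WW for control library 1, OW for control libraries 2 and 3 and OR for the 3 mutants, whose meaning is not given in the sources used here. Osr2-Cre acts in the dental mesenchyme and the alveolar bone and not in the dental epithelium, and whether it recombines in the Schwann cells of the tooth is not given in the sources used here. Nothing states that the 3 libraries of a group came from separate animals or whether animals were pooled, so p-values measure only the spread between these samples.

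Schwann cells are the glia of peripheral nerves. They arise from the neural crest, follow sensory axons of the trigeminal nerve into the tooth, and either wrap a single large axon in myelin or ensheathe small axons without it. The transcription factor SOX10 is needed throughout this lineage, neuregulin carried by axons acts on the ERBB2 and ERBB3 receptor pair, and the compact myelin sheath contains PMP22 and MBP. Periaxin, the product of Prx, links the outer surface of the myelinating cell to the basal lamina.

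The 6 libraries held 56134770 to 62628940 counted reads. Ror2, the deleted gene, was measured at 38.2, 36.2 and 36.7 CPM (reads per 1000000 counted, scaled by the trimmed mean of M-values, TMM) in control libraries 1 to 3 and at 27.9, 28.1 and 26.3 CPM in mutant libraries 1 to 3, which is 25.98% lower (log2 fold change -0.43, SE 0.08, edgeR adjusted p = 0.013). This call did not pass without control library 2 (adjusted p = 0.0664) or control library 3 (adjusted p = 0.0752). Amelx, which encodes the enamel protein amelogenin made by epithelial ameloblasts, was the most abundant gene in every library and took 9.15% to 9.97% of counts in the controls and 12.6% to 15.1% in the mutants, so the samples labelled as pulp also held enamel epithelium. Of the 19330 genes that passed the filter on low counts, 3906 or 20.2% passed an adjusted p of 0.05 between the groups.

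All 8 Schwann cell genes passed the filter on low counts. S100b was higher in the mutants and Pmp22 was lower, each with no overlap between the groups, and the other 6 did not pass the test. The 2 calls among 8 genes, 25.0%, stand beside 20.2% of all genes tested (10.4% higher and 9.84% lower in the mutants). At an unadjusted p of 0.05, 3 of the 8 passed, S100b, Pmp22 and Cdh19, against 38.3% of all genes tested. The groups did not overlap in 2 of the 8 genes, 25.0%, against 44.7% of all genes tested (22.6% higher and 22.1% lower in the mutants). The median log2 fold change of the 8 genes was -0.12, and that of all genes tested was 0.0074.

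**Figure D1:**
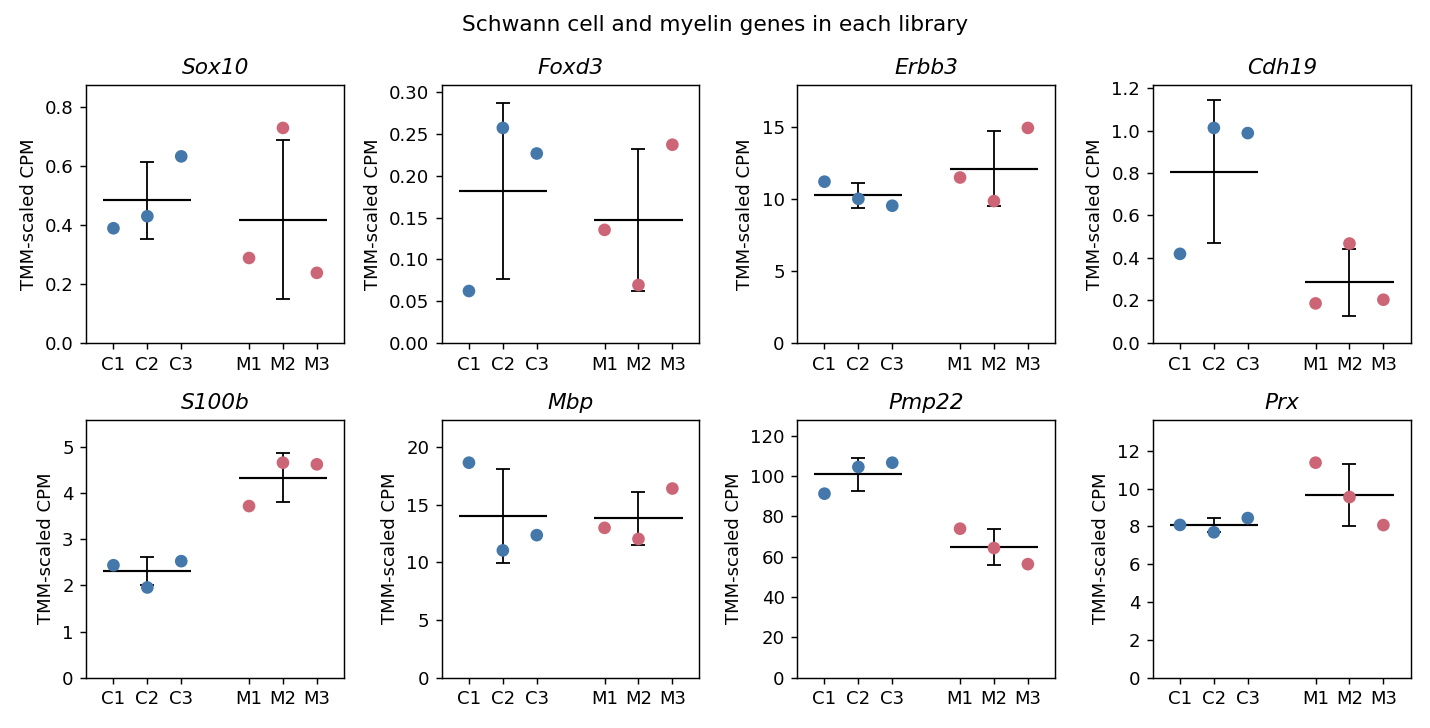
Expression of the 8 Schwann cell genes in TMM-scaled CPM in each of the 3 control and 3 mutant libraries, with group means and SD. The mutant libraries lie above all controls for S100b (3.72 to 4.66 against 1.96 to 2.53 CPM) and below them for Pmp22 (56.3 to 73.9 against 91.2 to 107 CPM), and the groups overlap in the other 6 panels.

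The first question was whether the transcription factors that mark the lineage differed between the groups. Sox10 (ENSMUSG00000033006.10, chr15:79154908-79165240, minus strand, mm10), the factor that maintains Schwann cell identity, was measured at 0.388, 0.429 and 0.632 CPM in control libraries 1 to 3 and at 0.288, 0.728 and 0.237 CPM in mutant libraries 1 to 3. The highest and the lowest values were both from mutant libraries. The means were 0.483 ± 0.130 and 0.418 ± 0.270 CPM (SD, n = 3 each), and the log2 fold change of -0.21 (SE 0.47, 95% interval -1.29 to 0.87) did not pass (edgeR adjusted p = 0.77). These values rest on 14 to 42 reads per library and on 3 libraries per group, and the interval takes in changes of up to either bound.

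Foxd3 (ENSMUSG00000067261.4, chr4:99656299-99658622, plus strand), a forkhead factor of the neural crest and of early glial precursors, had the lowest level of the 8 genes, with 4, 15 and 14 reads in the controls and 8, 4 and 14 in the mutants. That is 0.0621, 0.257 and 0.227 CPM against 0.135, 0.0693 and 0.237 CPM. The groups overlapped fully, and the log2 fold change of -0.29 (SE 0.63, 95% interval -1.73 to 1.15) did not pass the test. A count of 4 reads has an exact Poisson interval of 1.09 to 10.2, which covers counting error only.

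Erbb3 (ENSMUSG00000018166.8, chr10:128567523-128589652, minus strand) encodes the neuregulin receptor through which axons sustain Schwann cells. It was measured at 11.2, 10.02 and 9.54 CPM in the controls and at 11.5, 9.86 and 14.9 CPM in the mutants. Mutant library 3 was the highest of all and mutant library 2 lay within the control range. The means were 10.3 ± 0.861 and 12.1 ± 2.596 CPM (SD, n = 3 each), and the log2 fold change of 0.24 (SE 0.17, 95% interval -0.14 to 0.62) did not pass (edgeR adjusted p = 0.317). Per kilobase of exon its control mean was 1.70 CPM, against 0.158 for Sox10. Which cells of the samples made Erbb3 was not tested.

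Cdh19 (ENSMUSG00000047216.8, chr1:110888326-110977584, minus strand) encodes a cadherin of Schwann cell precursors. It was measured at 0.419, 1.01 and 0.988 CPM in the controls and at 0.186, 0.468 and 0.203 CPM in the mutants, from 27, 59 and 61 reads against 11, 27 and 12. Mutant library 2 lay above control library 1, so the groups overlapped. The log2 fold change was -1.49 (SE 0.49, 95% interval -2.61 to -0.37), with an edgeR unadjusted p of 0.0155 and an adjusted p of 0.0633 that missed the threshold. It passed without mutant library 2 (log2 fold change -2.02, adjusted p = 0.0300) and in 3 other fits, namely DESeq2 (adjusted p = 0.0291), the edgeR likelihood ratio test (0.0217) and limma-voom (0.0199).

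S100b (ENSMUSG00000033208.7, chr10:76253853-76261159, plus strand) encodes a calcium-binding protein of Schwann cells, astrocytes and chondrocytes. The 300 bases around its RefSeq start (250 before and 50 after, GRCm38.p6, chr10:76253586-76253885, plus strand) are shown because this gene rose, with CG dinucleotides in capitals.
S100b promoter: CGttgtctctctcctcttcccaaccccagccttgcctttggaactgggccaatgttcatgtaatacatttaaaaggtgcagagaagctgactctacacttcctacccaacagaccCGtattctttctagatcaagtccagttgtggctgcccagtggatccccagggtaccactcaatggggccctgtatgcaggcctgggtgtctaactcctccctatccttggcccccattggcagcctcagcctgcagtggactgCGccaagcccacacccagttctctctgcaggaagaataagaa
This window held 3 CG dinucleotides, where the median of 32851 RefSeq promoter windows of this length was 7 and 23.3% held fewer than 3.

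S100b was measured at 2.44, 1.96 and 2.53 CPM in control libraries 1 to 3 and at 3.72, 4.66 and 4.63 CPM in mutant libraries 1 to 3. Every mutant library exceeded every control library. The means were 2.31 ± 0.307 and 4.34 ± 0.533 CPM (SD, n = 3 each), a log2 fold change of 0.91 (SE 0.18), or 1.88-fold higher in the mutants (95% interval 1.41 to 2.51, edgeR adjusted p = 0.0145). The call did not pass without control library 2 (adjusted p = 0.0775) or control library 3 (adjusted p = 0.0592), and it passed in 16 of 18 alternative fits. An exact two-sided permutation test of the 6 values gave p = 0.1, the smallest that 3 against 3 libraries allow. In these bulk samples a different number of Schwann cells, a different amount of RNA per cell and reads from other cells that make S100b cannot be told apart.

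S100b lies across Dip2a on the opposite strand, and whether the counting used strand is not given in the sources used here. The exons of the pair share 0 bases. Dip2a, named here after its values were seen, was at 106 CPM in the controls and 98.7 CPM in the mutants (log2 fold change -0.11, edgeR adjusted p = 0.593).

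Pmp22 (ENSMUSG00000018217.12, chr11:63128982-63159547, plus strand) encodes a membrane protein of compact myelin that many non-neural cells also make. RefSeq places starts of this gene in 4 windows, of which the first and the last are shown because the gene-level count sums transcripts from all of them. CG dinucleotides are in capitals (GRCm38.p6, plus strand, chr11:63128732-63129031 and chr11:63132553-63132852).
Pmp22 first window: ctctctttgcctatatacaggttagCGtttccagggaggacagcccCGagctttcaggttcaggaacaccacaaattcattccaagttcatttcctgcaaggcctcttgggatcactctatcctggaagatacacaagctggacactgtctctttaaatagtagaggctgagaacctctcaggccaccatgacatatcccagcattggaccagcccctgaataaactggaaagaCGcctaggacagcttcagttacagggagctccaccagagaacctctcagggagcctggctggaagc
Pmp22 last window: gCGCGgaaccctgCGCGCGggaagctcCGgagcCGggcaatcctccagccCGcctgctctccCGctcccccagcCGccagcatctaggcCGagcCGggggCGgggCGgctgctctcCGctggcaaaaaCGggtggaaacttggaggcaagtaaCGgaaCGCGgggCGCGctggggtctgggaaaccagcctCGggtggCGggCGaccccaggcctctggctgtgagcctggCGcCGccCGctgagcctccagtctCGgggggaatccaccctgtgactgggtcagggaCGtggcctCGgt
The first window held 3 CG dinucleotides and the last held 30, more than in 88.3% of all windows. The core bound by SOX proteins, NNCAANG with A or T at each N, was searched on both strands. It was not in the S100b window or in these Pmp22 windows, and 24.6% of all windows held at least 1 match.

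Pmp22 was measured at 91.2, 104 and 107 CPM in control libraries 1 to 3 and at 73.9, 64.3 and 56.3 CPM in mutant libraries 1 to 3. Every mutant library lay below every control library. The means were 101 ± 8.33 and 64.8 ± 8.80 CPM (SD, n = 3 each), a log2 fold change of -0.64 (SE 0.12, 95% interval -0.92 to -0.36), or 35.7% lower in the mutants (edgeR adjusted p = 0.0127). The call did not pass without control library 2 (adjusted p = 0.0659) or control library 3 (adjusted p = 0.0667), and it passed in 16 of 18 alternative fits. The exact two-sided permutation p was 0.1.

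Prx (ENSMUSG00000053198.13, chr7:27499324-27520214, plus strand) was measured at 8.07, 7.69 and 8.44 CPM in the controls and at 11.4, 9.55 and 8.07 CPM in the mutants. Mutant library 3 lay within the control range and the other mutant libraries above it. The means were 8.07 ± 0.376 and 9.66 ± 1.65 CPM (SD, n = 3 each), and the log2 fold change of 0.26 (SE 0.15, 95% interval -0.08 to 0.60) did not pass (edgeR adjusted p = 0.227). Prx shares 300 exonic bases with the antisense gene Gm15541, named here after its values were seen, which was at 0.308 CPM in the controls and 0.485 CPM in the mutants.

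Mbp (ENSMUSG00000041607.17, chr18:82475146-82585637, plus strand) encodes myelin basic protein, which holds the cytoplasmic faces of the sheath together. It was measured at 18.7, 11.05 and 12.4 CPM in the controls and at 13.0, 12.04 and 16.4 CPM in the mutants. Control library 1 was the highest of the 6 and control library 2 the lowest, so the mutant libraries lay within the control range. The means were 14.0 ± 4.07 and 13.8 ± 2.30 CPM (SD, n = 3 each), and the log2 fold change of -0.02 (SE 0.21, 95% interval -0.51 to 0.46) did not pass (edgeR adjusted p = 0.951). Its sign turned in 8 of 18 alternative fits, so no direction is given. The gene also makes Golli transcripts outside the nervous system, and its transcripts are summed in these counts.

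**Figure D2:**
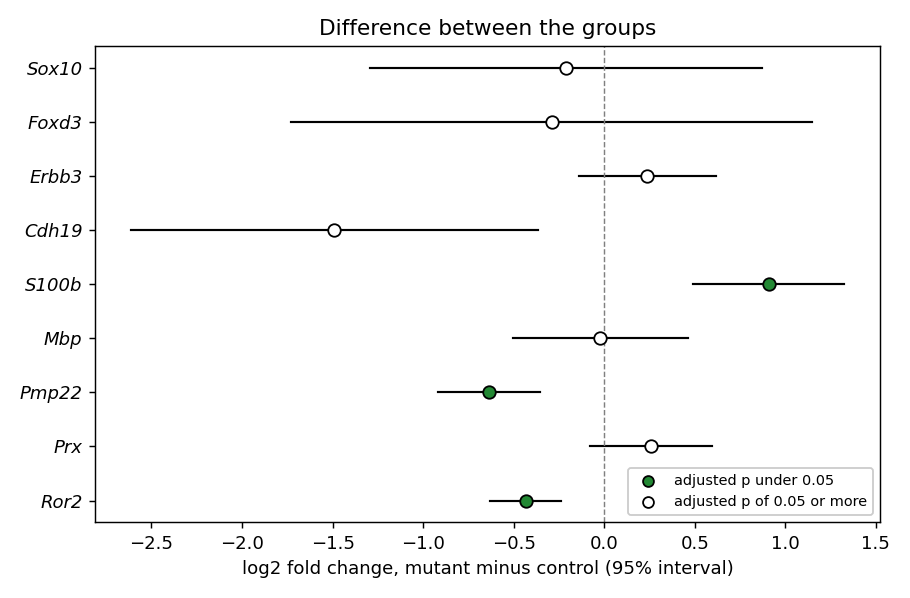
Log2 fold change, mutant minus control, of the 8 Schwann cell genes with 95% intervals from the edgeR fit. The intervals of S100b (0.49 to 1.33), Pmp22 (-0.92 to -0.36) and Cdh19 (-2.61 to -0.37) leave out 0, and after adjustment over all genes S100b and Pmp22 pass.

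Levels were compared between genes after division by the merged length of all annotated exons of a gene, as CPM per kilobase. This length takes in the exons of every transcript, 8469 bases for Mbp, so levels can be understated where shorter transcripts are made. In the controls Pmp22 was at 42.8 CPM per kilobase, followed by Erbb3 at 1.70, Mbp at 1.66, S100b at 1.55, Prx at 1.45, Cdh19 at 0.188, Sox10 at 0.158 and Foxd3 at 0.0783. Pmp22 stood 25.1-fold above Erbb3, with no overlap of their control libraries. The neighbours Erbb3 and Mbp, Mbp and S100b, S100b and Prx, and Cdh19 and Sox10 overlapped in their control libraries, while Prx and Cdh19 (7.67-fold apart) and Sox10 and Foxd3 (2.02-fold apart) did not. In the mutants S100b was at 2.92 CPM per kilobase and its libraries lay apart from those of Mbp at 1.63 and Prx at 1.73.

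**Figure D3:**
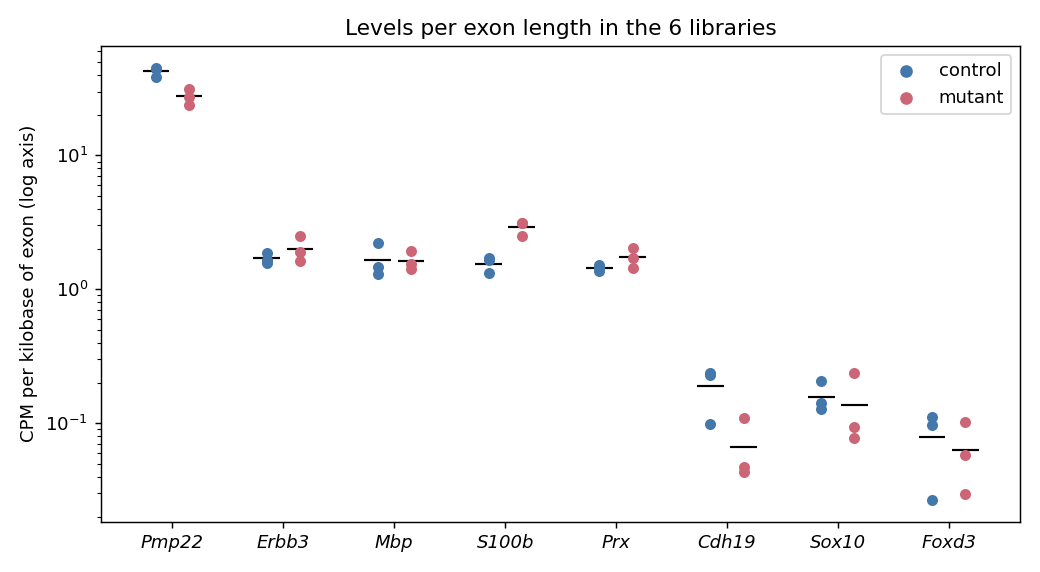
Level of the 8 genes in CPM per kilobase of exon on a log axis, each point a library of the control or mutant group. Pmp22 lies far above the rest at 42.8 in the controls and 27.5 in the mutants, and Foxd3 is lowest at 0.0783 and 0.0634.

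The genes whose pattern over the 6 libraries was most like that of Sox10 were found from the mean absolute difference of centred log2 CPM among 15049 genes. Among the 5 nearest were Tmem243 (0.178), Gm13268 (0.182), Sfrp2 (0.184) and 8030451A03Rik (0.186). Mutant library 2 was the highest library for Sox10 and for each of these 4 genes. These 4 were chosen by their likeness to Sox10 over the same 6 libraries, so this shared peak follows from the choice. The pattern of Sox10 itself rests on 14 to 42 reads per library. Mutant library 2 was also the highest mutant library for Cdh19, which was not chosen in this way.

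The other Schwann cell genes were then examined in 4 lists by role, 55 genes in all, of which 52 were in the table and 46 passed the filter on low counts. Of those 46, 9 passed the test, 2 higher and 7 lower in the mutants. That is 19.6%, against 20.2% of all genes tested. The groups did not overlap in 23 of the 46, against 44.7% of all genes tested, and the median log2 fold change was -0.26.

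Among the transcription factors of the lineage, 2 of 9 tested genes fell, or 22.2% against 20.2% of all genes tested. The median log2 fold change was -0.24. Zeb2, which Schwann cells need to mature and myelinate, was measured at 56.8, 77.0 and 78.5 CPM in the controls and at 40.7, 31.1 and 47.1 CPM in the mutants (log2 fold change -0.84, edgeR adjusted p = 0.017). Yy1, a general factor also needed for myelination, fell from 105 ± 6.68 to 75.4 ± 12.5 CPM (SD, n = 3 each, log2 fold change -0.48, edgeR adjusted p = 0.040). In the controls Zeb2 averaged 70.8 CPM, and both genes stood far above Sox10 at 0.483 CPM. Which cells of the samples made Zeb2 and Yy1 was not tested. Tfap2a, a factor of Schwann cell precursors, was at 8.29, 5.54 and 5.96 CPM in the controls and 9.52, 9.70 and 9.34 CPM in the mutants and did not pass (edgeR adjusted p = 0.057). Egr2, the master factor of myelination, named here after its values were seen, was at 0.303 ± 0.0258 and 0.461 ± 0.0273 CPM (SD, n = 3 each, log2 fold change 0.60, edgeR adjusted p = 0.170). The call of Zeb2 ended without control library 2 or 3 (adjusted p up to 0.0768) and with a GC and length correction (log2 fold change -0.30, adjusted p = 0.058). That of Yy1 ended without any 1 control library or mutant library 1 (adjusted p up to 0.144) and with no filter on low counts (adjusted p = 0.0544).

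Among the genes of precursor and non-myelinating Schwann cells, 2 of 11 tested genes fell, or 18.2% against 20.2% of all genes tested. All 11 had fitted log2 fold changes below 0, with a median of -0.32 against 0.0074 for all genes tested. Some were small, as for Ngfr (-0.12), Fabp7 (-0.17) and L1cam (-0.04), named here after their values were seen. In each of these genes the groups overlapped and the test did not pass. Itga4, an integrin subunit of migrating crest-derived cells and of leukocytes, was measured at 69.7, 89.9 and 84.7 CPM in the controls and at 60.2, 42.5 and 61.0 CPM in the mutants (log2 fold change -0.58, edgeR adjusted p = 0.040). Gap43, a growth-associated protein of axons and immature glia, was at 4.80, 5.87 and 5.43 CPM against 2.32, 4.11 and 1.83 CPM (log2 fold change -0.96, edgeR adjusted p = 0.048). In both genes every mutant library lay below every control library. Dhh, the hedgehog ligand that Schwann cells secrete, was at 0.355 ± 0.0679 and 0.182 ± 0.0727 CPM and did not pass (SD, n = 3 each, edgeR adjusted p = 0.130). The call of Itga4 ended without control library 2 or 3 or mutant library 1 (adjusted p up to 0.146), and it was lost with a GC correction (log2 fold change -0.32, adjusted p = 0.139) or a GC and length correction (-0.13, adjusted p = 0.322). The call of Gap43 ended without any 1 library other than mutant library 2 (adjusted p up to 0.15), with a minimum of 1 CPM in 3 libraries (0.0517), with a GC correction (0.0541) and with limma-trend at a pseudocount of 1 (0.0501).

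Among the other myelin genes, 2 of 11 tested genes rose and 1 fell, so 27.3% passed against 20.2% of all genes tested. The median log2 fold change was 0.12. Gldn, the gliomedin by which Schwann cells gather sodium channels at nodes, was at 8.63, 8.41 and 7.92 CPM in the controls and 5.73, 4.21 and 2.44 CPM in the mutants (log2 fold change -1.01, edgeR adjusted p = 0.035). Cadm4, an adhesion molecule of the inner Schwann cell membrane, was at 7.75, 7.41 and 7.66 CPM against 10.3, 9.38 and 10.4 CPM (log2 fold change 0.40, edgeR adjusted p = 0.041). The groups overlapped in neither gene. The call of Gldn ended without any 1 control library or mutant library 2 (adjusted p up to 0.110) and with a GC correction (0.0592) or a GC and length correction (0.0619). That of Cadm4 ended without any 1 library other than mutant library 2 (adjusted p up to 0.177), with library size alone (0.0876), with no filter on low counts (0.0677), with limma-trend at a pseudocount of 1 (0.0518), and with a GC correction (log2 fold change 0.17, adjusted p = 0.369) or a GC and length correction (0.11, adjusted p = 0.577).

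Among the genes of neuregulin signalling, axon contact and the basal lamina, 2 of 15 tested genes fell, or 13.3% against 20.2% of all genes tested. The median log2 fold change was -0.40. Erbb4, a neuregulin receptor that epithelia and neurons also use, was measured at 1.04, 2.52 and 1.96 CPM in the controls and at 0.237, 0.191 and 0.356 CPM in the mutants. Every mutant library lay below every control library, and the level was 6.99-fold lower (log2 fold change -2.80, SE 0.41, edgeR adjusted p = 0.0047). This call was kept in all 18 alternative fits. Which cells of the samples made Erbb4 was not tested. Of the 15 tested genes of this list, 2 were fitted higher and 13 lower. Erbb2, the partner of Erbb3 in the receptor pair, was fitted higher and is named here after its values were seen. It averaged 44.3 CPM in the controls and 51.9 CPM in the mutants, without overlap. The log2 fold change of 0.23 did not pass (edgeR adjusted p = 0.120).

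Lgi4, a secreted Schwann cell protein that acts on axonal sorting and myelination, was at 2.39, 1.39 and 1.44 CPM in the controls and 0.981, 0.728 and 0.678 CPM in the mutants (log2 fold change -1.13, edgeR adjusted p = 0.034). The groups did not overlap, but the call ended on leaving out any 1 of the 6 libraries (adjusted p 0.0504 to 0.0914) and with limma-voom (0.0602). Utrn, which joins dystroglycan to the cytoskeleton, was at 85.3, 105 and 99.7 CPM against 66.9, 40.4 and 77.4 CPM and did not pass (edgeR adjusted p = 0.065).

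**Figure D4:**
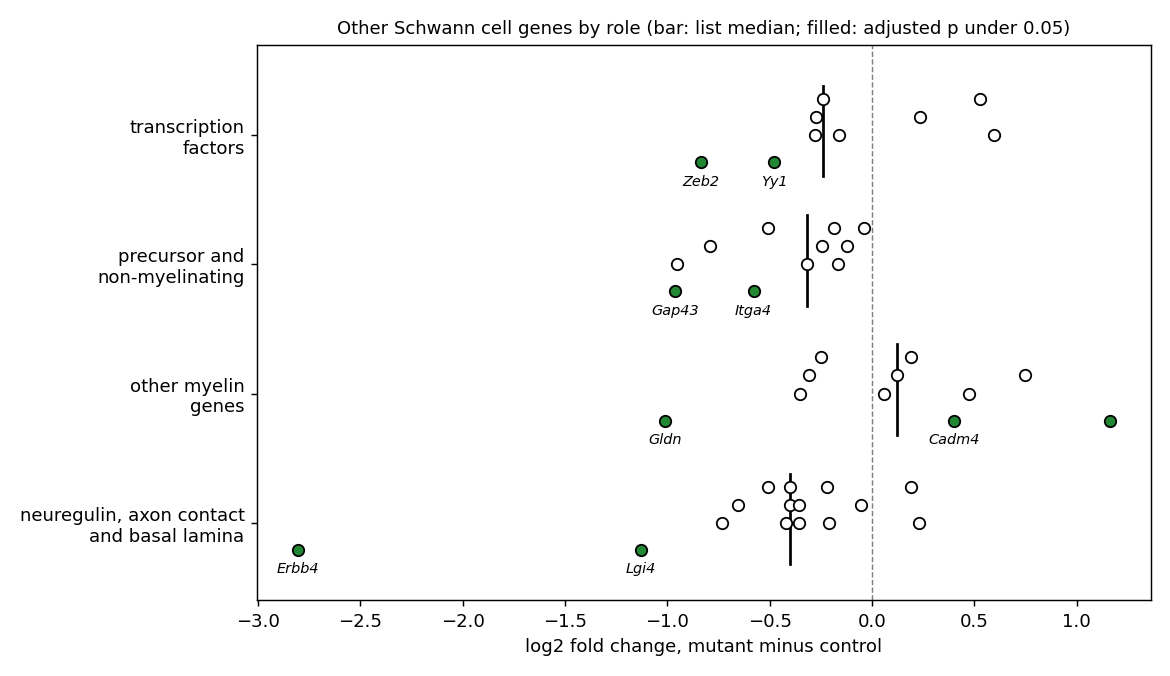
Log2 fold change, mutant minus control, of the 46 tested genes in the 4 role lists, with a bar at each list's median and filled points for an adjusted p under 0.05. The 7 called genes that fell run from Erbb4 (-2.80) to Yy1 (-0.48), and Cadm4 (0.40) is among the 2 that rose.

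Markers of other cell types were measured as summed CPM. Oligodendrocytes, which share Mbp with Schwann cells, had 2 of 6 listed markers in the table. These summed to 2.52 to 3.09 CPM in the controls and 1.44 to 2.98 CPM in the mutants. Nearly all of this was Myrf (means 2.77 and 2.11 CPM). Mog, named here after its values were seen, had 2, 0 and 0 reads in the controls and 1, 5 and 0 in the mutants. The sums thus rest on 1 gene and do not show that oligodendrocytes were present. Chondrocytes, which share S100b, had 3 of 4 tested markers pass as lower in the mutants, or 75% against 20.2% of all genes tested. These were Acan (means 2.17 and 0.558 CPM), Col9a1 (3.47 and 0.899) and Col2a1 (12.3 and 7.24), named here after their values were seen. The chondrocyte sums were 401 to 1188 CPM against 350 to 738 CPM. They were mostly Col11a2 (785 ± 392 and 493 ± 206 CPM, SD, n = 3 each), which did not pass (edgeR adjusted p = 0.257). Melanocytes, which share Sox10 and Erbb3, summed to 17.5 to 19.2 CPM in the controls and 13.2 to 16.4 CPM in the mutants without overlap. Of the 3 melanocyte markers tested 0 passed, with 1 fitted higher and 2 lower. Mitf, the melanocyte master factor, made up most of the control sum at 11.3 ± 0.263 and 6.24 ± 2.68 CPM (SD, n = 3 each) and did not pass (edgeR adjusted p = 0.052). Dct, named here after its values were seen, went the other way at 5.49 ± 0.718 and 6.94 ± 0.754 CPM (edgeR adjusted p = 0.143). The sum thus does not show that melanocytes were fewer.

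All 6 skeletal muscle markers tested fell, or 100% against 20.2% of all genes tested. Their sums were 10.4 to 35.9 CPM in the controls and 2.605 to 3.49 CPM in the mutants. Acta1, the skeletal actin, fell from 9.16 ± 3.81 to 1.33 ± 0.0645 CPM (SD, n = 3 each, edgeR adjusted p = 0.0018). Of the 6 macrophage markers tested 1 fell, or 16.7% against 20.2% of all genes tested. Their sums were 88.6 to 112 CPM against 83.8 to 129 CPM. Of the 5 red blood cell markers tested 2 fell, or 40% against 20.2% of all genes tested, with sums of 782 to 1318 CPM and 243 to 932 CPM. The sums of endothelial markers (179 to 236 and 169 to 225 CPM), dental mesenchyme markers (181 to 228 and 163 to 206 CPM), odontoblast markers (14456 to 46185 and 12787 to 35431 CPM) and dental epithelium markers (171361 to 191706 and 184973 to 255227 CPM) overlapped between the groups. The most abundant tested marker of each other list did not pass by edgeR, with log2 fold changes of -0.19 for Msx1 (mesenchyme), -0.55 for Col1a1 (odontoblasts and bone), 0.56 for Amelx (epithelium), -0.40 for Myrf (oligodendrocytes), -0.67 for Col11a2 (cartilage), -0.19 for Cdh5 (endothelium), -0.21 for Csf1r (macrophages) and -0.52 for Hbb-bs (red blood cells). The part of these cells in the differences of S100b, Pmp22 and the other Schwann cell genes was not tested.

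**Figure D5:**
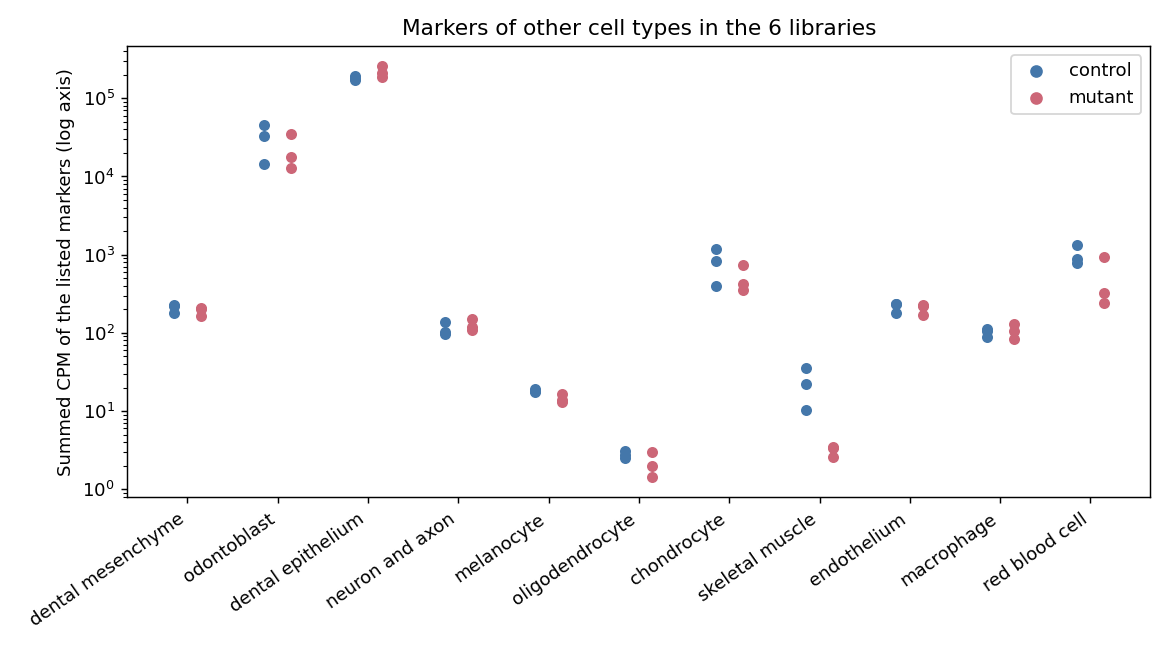
Summed CPM of the markers of each other cell type in every library, on a log axis. The control and mutant libraries are apart for skeletal muscle (10.4 to 35.9 against 2.605 to 3.49 CPM) and melanocytes (17.5 to 19.2 against 13.2 to 16.4 CPM). Of the 3 melanocyte markers tested, 0 passed.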

How the data were processed

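Single-end 75-cycle reads were obtained on an Illumina HiSeq. The submitters' processing notes name STAR 2.6.1d, Partek and mm10, whereas the methods of the study name TopHat 2, and which made the table cannot be told apart here. The gene models matched GENCODE M21. The authors deposited estimated counts per gene, which were rounded, and a normalized table, whose values were a multiple of count plus 1, as a signal per library with no division by length, which was used only in 2 alternative fits. Another 6 columns belong to samples outside these groups and were not used. Whether counting used strand is not given in the sources used here.

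Genes were filtered with filterByExpr, scaled by TMM and tested with edgeR 4.0.16 (quasi-likelihood, mutant against control, 3 libraries each) in R 4.3.3, with Benjamini-Hochberg adjustment over all 19330 genes. The common biological coefficient of variation was 18.7%. Alternatives used DESeq2 1.42.0, limma 3.58.1, other filters, scalings, pseudocounts, GC and length corrections, a replicate block and each library left out. The 8 genes and all lists were chosen with earlier results of these data known. Named genes were the 8, Ror2, the 3 of lowest p in each role list, the most abundant marker of each cell type and the 5 genes most like Sox10, and the exceptions are marked. Scripts were tested on simulated data. Promoter windows are from RefSeq, with 4 of the 8 genes matched. Pmp2, Gjb1 and Fa2h were not analysed here, and some genes that enter the counts are not reported by name.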

Additional observations from a re-analysis of the deposited data

How the results depend on the processing

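The main fit was compared with 18 alternatives for most genes, and fewer where a filter removed the gene. Of the 8 Schwann cell genes, 2 passed in the main fit and 0 to 3 on leaving out 1 library, with 0 without control library 2 and 0 without control library 3, where S100b and Pmp22 were the 2 with an edgeR unadjusted p under 0.05. Of the other Schwann cell genes, 9 passed in the main fit, 14 with DESeq2, 14 with the likelihood ratio test, 18 with limma-voom, and 2 to 10 on leaving out 1 library. Over all genes 3906 passed, against 6341 with limma-voom, 2013 with the replicate block, and 872 to 5001 on leaving out 1 library. The cause of these shifts was not tested. The log2 fold change turned sign for Sox10 (range on leaving out 1 library -0.86 to 0.065), for Foxd3 (-0.81 to 0.056) and for Mbp (-0.18 to 0.23), and for Mbp also with limma-voom (0.16), limma-trend at either pseudocount (0.019 and 0.022), the replicate block (0.0038) and the GC and length correction (0.0053). Deviations of same-numbered libraries had correlations of -0.10, -0.08 and -0.0038, and those of differently numbered libraries -0.037 to 0.10. With 3 libraries per group, these correlations cannot decide whether same-numbered libraries shared a preparation. With the replicate block S100b and Pmp22 still passed and 6 of the other Schwann cell genes did. Yy1 (edgeR adjusted p = 0.0739), Itga4 (0.0739) and Cadm4 (0.124) lost their calls with this block, as did Ror2 (0.0582). A minimum of 1 CPM in 3 libraries removed Sox10, Foxd3 and Cdh19, which rest on 4 to 61 reads per library and whose intervals span wide changes.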

Other observations

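Genes of nerve cells were measured in the same libraries. The summed CPM of the neuron and axon markers was 97.7 to 137 in the controls and 107 to 149 in the mutants. Of the 5 tested markers 1 rose, or 20% against 20.2% of all genes tested. That marker was Stmn2, a microtubule regulator of growing axons, which was at 7.07 ± 1.87 CPM in the controls and 15.3 ± 5.603 CPM in the mutants (SD, n = 3 each, log2 fold change 1.12, SE 0.28, edgeR adjusted p = 0.029). It was named after its values were seen, and its call ended without control library 2 or 3 or mutant library 1 (adjusted p up to 0.110). Tubb3, the neuronal tubulin, made up most of the summed CPM, at 81.2 ± 17.6 and 80.2 ± 13.4 CPM (log2 fold change -0.02, edgeR adjusted p = 0.946).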
